A study of Mus musculus with 16 samples.

Results

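The FoxO transcription factors and the muscle atrophy genes around them were examined in the skeletal muscle of mice. The 10 genes were those whose name in the mRNA table was Foxo1, Foxo3, Foxo4, Fbxo32, Trim63, Fbxo30, Fbxo31, Klf15, Ddit4, or Eif4ebp1. They are 10 of the 23235 gene names of that table. RNA was sequenced from 16 male C57BL/6J mice bought at 6 weeks of age, with 4 mice in each of 4 groups. The control mice ate a normal diet. The HFD mice ate the high-fat diet D12492J, with 60% fat, for 8 weeks before the treatment period. The HFD + RSV mice had the same diet and then 6 weeks of resveratrol (spelled "reveratrol" in the labels), a plant polyphenol. The HFD + metformin mice had the same diet and 6 weeks of metformin, a drug for type 2 diabetes. HFD was used as a model of insulin resistance, and the comparisons ask what the diet changed in the muscle and what each treatment changed on top of it. The muscle is not named. The study's methods state that some mice of each group received insulin shortly before tissue collection, and the labels do not say whether the sequenced mice did.

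FoxO proteins are transcription factors that insulin holds outside the nucleus through the kinase AKT. When insulin signaling falls, as in fasting, they enter the nucleus and raise the transcription of genes for protein breakdown and autophagy. Fbxo32 (atrogin-1) and Trim63 (MuRF1) encode the classical ubiquitin ligases of muscle wasting and are FoxO targets, and glucocorticoids raise them as well. Ddit4 (REDD1) and Eif4ebp1 (4E-BP1) lie on the other side of the protein balance, where Ddit4 restrains the kinase mTORC1 and Eif4ebp1 blocks the cap-binding factor of translation until mTORC1 phosphorylates it.

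Total counts in the mRNA table ranged from 17625909 to 29761026 per mouse. The 10 genes had between 316 and 67745 counts in each mouse, so none rested on few counts. The error from dividing fragments between overlapping transcripts and lncRNA rows was not measured. The 10 skeletal muscle markers summed to between 26405 and 39983 FPKM, and the 4 retina markers found in the table summed to at most 0.648 FPKM, although the extraction text of the labels speaks of retinas. Control replicate 3 and HFD + metformin replicate 3 stood apart. Their white adipocyte markers (7 of 7 detected) summed to 4551 and 3971 FPKM, against 146 to 1553 FPKM in the other 14 mice. The mouse labels start with a number whose meaning is not given, and it was 7 for every HFD mouse and for no other mouse, so whatever it stands for cannot be told apart from the HFD group.

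On the per-length scale (FPKM summed over the transcripts of a gene), the 10 genes covered a wide range of levels. Trim63 and Fbxo32 were the most abundant, with means over the 16 mice of 208 and 193 FPKM, which ranked 146 and 162 among the 15364 genes tested. Fbxo31, a further F-box ligase subunit, averaged 55.6 FPKM and Foxo4 averaged 38.4 FPKM. The means of Ddit4, Klf15, and Eif4ebp1 were 25.9, 21.6, and 20.2 FPKM. Fbxo30 (MUSA1), a ligase subunit restrained by BMP signaling, averaged 9.05 FPKM. Foxo3 and Foxo1 had the lowest levels, with means of 7.38 and 3.01 FPKM, so Foxo4 mRNA was the most abundant of the 3 FoxO mRNAs in each of the 4 groups. The FPKM of Foxo1 and Foxo3 leave out fragments that were counted to lncRNA rows lying within their exons, which held 58.1% and 56.3% of the counts of both tables there.

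In GRCm38, the main transcript of Ddit4 lies on the minus strand of chr10:59949669-59951834 and has 3 exons, and that of Eif4ebp1 lies on the plus strand of chr8:27260329-27276674 and has 3 exons. Trim63 lies on the plus strand of chr4:134315120-134329629, with 9 exons, and Fbxo32 on the minus strand of chr15:58175879-58214932, with 9 exons. RefSeq promoter windows (GRCm38.p6, 250 bases before to 50 bases after the start) were at hand for 7 of the 10 genes. The windows of Trim63, one of the pair of classical ligases, and of Ddit4, the gene with the largest difference, are shown 5′ to 3′, with matches to searched motifs in capitals.
Trim63, plus strand, chr4:134314870-134315169: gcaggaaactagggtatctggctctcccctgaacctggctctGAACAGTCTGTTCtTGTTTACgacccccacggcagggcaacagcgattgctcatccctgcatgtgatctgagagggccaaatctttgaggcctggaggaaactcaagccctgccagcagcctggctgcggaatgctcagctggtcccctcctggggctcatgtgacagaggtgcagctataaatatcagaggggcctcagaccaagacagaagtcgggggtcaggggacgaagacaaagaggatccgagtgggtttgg
Ddit4, minus strand, chr10:59951721-59952020: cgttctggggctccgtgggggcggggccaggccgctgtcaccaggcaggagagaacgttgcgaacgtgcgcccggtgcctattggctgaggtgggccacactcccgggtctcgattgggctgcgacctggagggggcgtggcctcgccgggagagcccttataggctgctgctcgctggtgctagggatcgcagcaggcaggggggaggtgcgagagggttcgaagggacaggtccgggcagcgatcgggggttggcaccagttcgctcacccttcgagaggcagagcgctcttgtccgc
Both strands were searched for the FoxO motif GTAAACA, the glucocorticoid response element (GNACA and TGTNC with 3 bases of any kind between them), the E-box CACGTG, and the ATF4 motif TTGCATCA. In the Trim63 window, a match to the glucocorticoid element starts 208 bases before the transcription start and a match to the FoxO motif on the other strand starts 194 bases before it. Over all 32851 windows of the same length, 3.65% held the FoxO motif and 0.475% held the glucocorticoid element. The Klf15 window held 3 E-boxes, a motif present in 7.15% of windows. The windows of Foxo1, Foxo3, Fbxo30, Fbxo31, and Ddit4 held none of the searched letters.

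**Figure D1:**
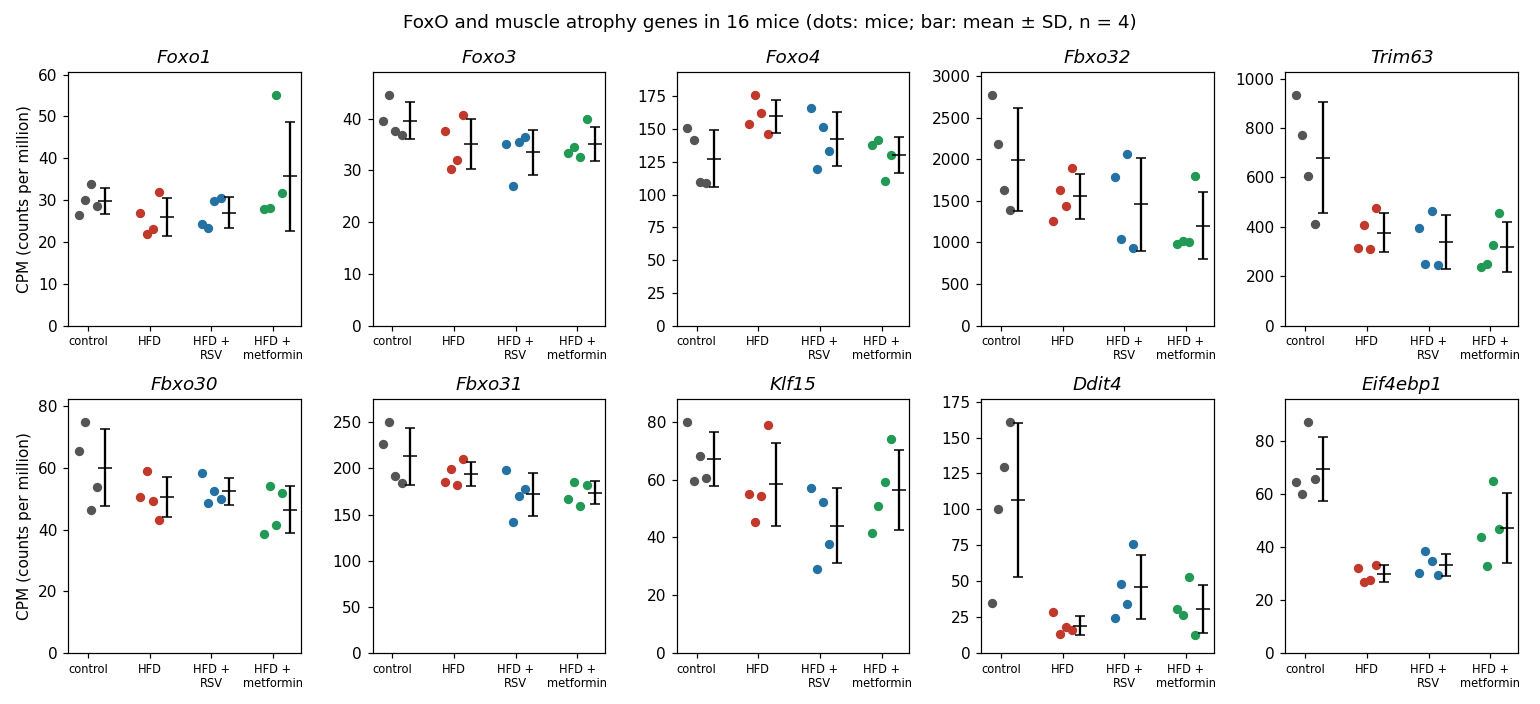
CPM of the 10 genes in each of the 16 mice, with 1 panel per gene, the 4 groups on the horizontal axis, dots for mice, and a bar at the mean ± SD (n = 4). The control and HFD dots of Ddit4 and Eif4ebp1 do not overlap, and HFD + metformin replicate 3 lies at 55.1 CPM in the Foxo1 panel.

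In HFD against control, the mRNAs of both translation regulators, Ddit4 and Eif4ebp1, were lower in HFD. The FoxO factors, the 4 ubiquitin ligase genes, and Klf15 did not pass the test. Thus 2 of the 10 genes were called at an adjusted P below 0.05 (edgeR quasi-likelihood test over all genes, Benjamini-Hochberg), both lower in HFD, where 2.43% of the 15364 genes tested were called in either direction and 1.11% were called lower. At an unadjusted P below 0.05, 4 of the 10 genes passed (Trim63 and Foxo4 besides these), beside 24.2% of all genes. The background itself moved with the mice used, from 16 genes called without control replicate 2 to 1588 without HFD + metformin replicate 3, beside 374 with all mice. The median log2FC of the 10 genes was -0.23, beside -0.02 over all genes, and 9 of the 10 values were negative.

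Ddit4, the inhibitor of mTORC1, had CPM of 34.8, 100.2, 129, and 161 in the control mice and 28.7, 13.1, 18.0, and 16.3 in the HFD mice. Every HFD mouse lay below every control mouse, although control replicate 1, the lowest control, was close to HFD replicate 1. The mean fell from 106 ± 53.7 to 19.0 ± 6.75 CPM (SD, n = 4 each), a 5.58-fold lower level (log2FC -2.48, SE 0.51, 95% confidence interval -3.57 to -1.39, edgeR adjusted P = 0.0336). The exact two-sided permutation test of log2 CPM gave P = 0.0286, the smallest that 4 mice against 4 can give. The call was lost, with log2FC between -2.75 and -2.21 and edgeR adjusted P between 0.0648 and 0.0954, when control replicate 2, 3, or 4 or any single HFD mouse was left out.

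Eif4ebp1, the translation repressor, had CPM of 64.5, 59.8, 86.9, and 65.6 in the control mice and 32.2, 26.9, 27.4, and 33.1 in the HFD mice. The groups were well separated, with the highest HFD mouse far below the lowest control mouse. Its mean fell from 69.2 ± 12.0 to 29.9 ± 3.18 CPM (SD, n = 4 each), which was 2.31-fold lower (log2FC -1.21, SE 0.18, 95% confidence interval -1.59 to -0.83, edgeR adjusted P = 0.0109). The exact permutation P was again 0.0286. Leaving out any single mouse kept the call, with edgeR adjusted P of at most 0.0466. For both genes the CPM ranges of control and HFD did not overlap, which was the case for 2 of the 10 genes and for 18.3% of all genes tested.

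Markers of other cells and of slow fibres moved with these differences. White adipocyte markers summed to 912 to 4551 FPKM in the control mice and 146 to 847 FPKM in the HFD mice, so the groups did not overlap. Slow fibre markers (6 of 6 detected) summed to 847, 368, and 671 FPKM in control replicates 2 to 4, to 23.4 FPKM in control replicate 1, and to 24.0 to 89.4 FPKM in the HFD mice. All 6 had a negative log2FC and an unadjusted P below 0.05 (median -3.54), as 24.2% of all genes had such a P. Myh7, the slow myosin heavy chain, was at 0.376 FPKM in control replicate 1 and at 77.5 to 141 FPKM in the other controls. Control replicate 1, the control with the lowest Ddit4, thus also had the lowest slow fibre sum of all 16 mice. Brown adipocyte markers (4 of 4 detected) moved as well, although their sums overlapped, at 142 to 775 FPKM in control and 136 to 235 FPKM in HFD. Cox8b, at 106 FPKM or more in every mouse, made up most of these sums in HFD, and the other 3 genes had an unadjusted P below 0.05 (median log2FC of the 4 genes -7.05). Ucp1, the uncoupling protein of brown fat, was at 5.97, 22.3, 247, and 1.75 FPKM in control and at 0.120 to 0.574 FPKM in HFD. Cidea, a lipid droplet protein, was called and lower in HFD, at 1.33 ± 0.722 against 104.6 ± 122 CPM (SD, n = 4 each, log2FC -6.30, edgeR adjusted P = 0.0474). Elovl3, a fatty acid elongase, was called lower too (edgeR adjusted P = 0.0342), at 0.479 to 32.5 FPKM in control and at most 0.0720 FPKM in HFD. Control replicate 3 was the highest in Ucp1, Cidea, and Elovl3, and the other control mice also lay above all HFD mice in each. The sums of the remaining lists overlapped between the groups, with Schwann cell markers (6 of 6) at 22.6 to 89.7 and 16.2 to 25.1 FPKM, blood markers (5 of 5) at 435 to 1290.4 and 432 to 557 FPKM, and macrophage markers (5 of 5) at 25.2 to 42.7 and 16.1 to 33.1 FPKM in control and HFD. All 6 Schwann cell markers had a negative log2FC, 3 with an unadjusted P below 0.05 (median -1.13). All 5 blood markers (median -0.61) and 4 of 5 macrophage markers (median -0.27) were negative too, with 0 and 1 at an unadjusted P below 0.05. Without control replicate 3 and HFD + metformin replicate 3, the log2FC of Eif4ebp1 was -1.08 (edgeR adjusted P = 0.0036) and that of Ddit4 was -2.38 (edgeR adjusted P = 0.0283). That fit called 555 of 15499 genes in HFD against control. Without control replicate 3 alone, 29 of 15552 genes were called, and Ddit4 lost its call while Eif4ebp1 kept it. The part of the slow fibre, Schwann cell, and blood RNA and of the remaining white and brown adipocyte RNA in the 2 results was not tested. In bulk muscle, fewer cells of a type and less RNA per cell cannot be told apart.

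**Figure D2:**
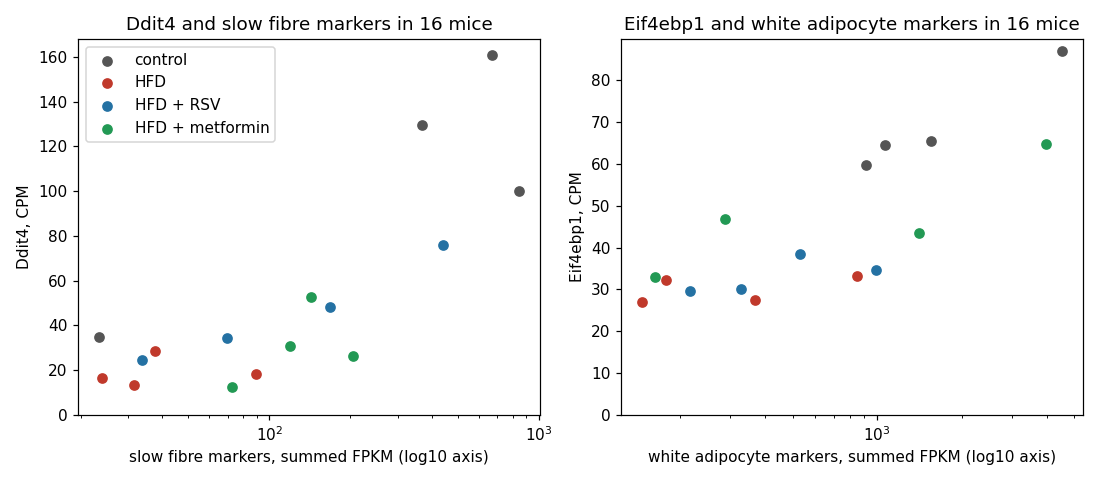
Ddit4 CPM against the summed FPKM of slow fibre markers (left) and Eif4ebp1 CPM against the summed FPKM of white adipocyte markers (right) in the 16 mice, with log10 horizontal axes and colours for groups. The control mouse at 23.4 FPKM of slow fibre markers has 34.8 CPM of Ddit4, and the 2 mice with the most white adipocyte RNA, at 4551 and 3971 FPKM, are control replicate 3 and HFD + metformin replicate 3.

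After subtraction of the group means, Ddit4 rose with the slow fibre sum over the 16 mice (r = 0.77, rho = 0.72) and Eif4ebp1 with the white adipocyte sum (r = 0.80, rho = 0.73). Neither passed the correction for the 70 relations computed between the 10 genes and 7 marker lists (exact permutation within groups, P = 0.00467 and 0.00342 for r, 0.00815 and 0.00595 for rho, adjusted P = 0.109 for both r and 0.143 and 0.139 for rho). Without the 2 mice farthest on the marker axis, r was 0.60 for each. Such relations were not particular to the 2 called genes. Fbxo30, not called, went against the white adipocyte sum (r = -0.76, rho = -0.81, exact permutation P = 0.00372 for r, adjusted P = 0.109). Its r was -0.77 without the 2 mice farthest on that axis.

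The classical ligases were lower in HFD by mean, but not past the test. Trim63, which targets thick-filament proteins, had CPM of 934, 771, 606, and 412 in control and 313, 407, 312, and 476 in HFD. The groups overlapped only through control replicate 4 and HFD replicate 4. Its log2FC was -0.85 (SE 0.29, 95% confidence interval -1.46 to -0.24), with an edgeR adjusted P = 0.0997, and it passed with DESeq2 (adjusted P = 0.0376). In this comparison DESeq2 called 1544 of 15353 genes, where edgeR called 374 of 15364. For Fbxo32, which marks regulators such as MyoD and eIF3f for breakdown, CPM were 2771, 2179, 1632, and 1384 in control and 1259.9, 1627, 1439, and 1889 in HFD, so the groups overlapped widely (log2FC -0.36, SE 0.29, edgeR adjusted P = 0.472). Fbxo30 had a mean of 60.1 ± 12.6 CPM in control and 50.5 ± 6.53 CPM in HFD, and Fbxo31 had 213 ± 30.6 and 194 ± 12.8 CPM (SD, n = 4 each, edgeR adjusted P = 0.314 and 0.499).

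Among the transcription factors, Foxo4 was the only gene of the 10 with a higher mean in HFD. Its CPM were 150.4, 141, 109, and 108 in control and 154, 176, 162, and 146 in HFD, with 1 overlap between control replicate 1 and HFD replicate 4 (log2FC 0.33, SE 0.13, edgeR adjusted P = 0.151, exact permutation P = 0.0571). Foxo1 ranged from 26.5 to 33.9 CPM in control and from 21.8 to 31.9 CPM in HFD, and Foxo3 from 36.8 to 44.6 and from 30.2 to 40.7 CPM. Both had intervals that included 0, from -0.62 to 0.23 for Foxo1 and from -0.42 to 0.07 for Foxo3. Klf15, a factor induced by glucocorticoids and fasting that represses muscle growth and favours amino acid breakdown, ranged from 59.5 to 79.8 CPM in control and 45.2 to 78.8 CPM in HFD (log2FC -0.20, 95% confidence interval -0.68 to 0.28, edgeR adjusted P = 0.619).

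**Figure D3:**
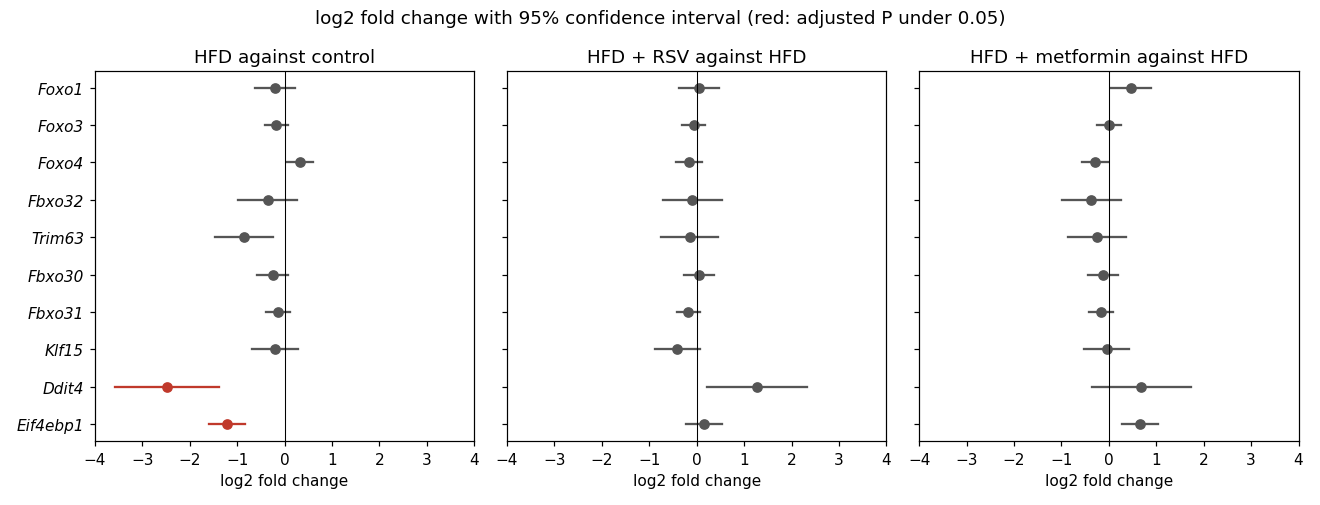
log2FC (points) with 95% confidence intervals (lines) of the 10 genes in HFD against control, HFD + RSV against HFD, and HFD + metformin against HFD, with calls at an adjusted P below 0.05 in red. The 2 red points are Ddit4 at -2.48 and Eif4ebp1 at -1.21 in HFD against control.

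HFD + RSV against HFD left the 10 genes without a call. Ddit4 had the largest difference, with a 2.40-fold higher mean level in HFD + RSV, and the other 9 genes had log2FC between -0.41 and 0.15. None of the 10 genes passed the adjusted threshold with edgeR, DESeq2, or limma-voom, and 0% of all genes tested passed it with edgeR. At an unadjusted P below 0.05, 1 of the 10 genes and 4.72% of all genes passed.

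Ddit4 had CPM of 24.6, 48.1, 34.2, and 75.9 in the HFD + RSV mice. HFD + RSV replicates 2, 3, and 4 lay above all HFD mice, and replicate 1 lay below HFD replicate 1. The log2FC was 1.26 (SE 0.49, 95% confidence interval 0.21 to 2.32, edgeR P = 0.0222, adjusted P = 0.999, exact permutation P = 0.0571). By the criteria of an unadjusted P below 0.05 with an absolute log2FC above 1, Ddit4 was the 1 gene of the 10 that passed, beside 1.08% of all genes in either direction and 0.885% higher. The slow fibre sums in the same order of mice were 33.8, 168, 69.8, and 442 FPKM, in the same rank order as Ddit4, and Schwann cell markers reached 171 FPKM in HFD + RSV replicate 2. The slow fibre sums overlapped those of HFD, whereas the blood marker sums did not, at 660, 1742, 645, and 762 FPKM in HFD + RSV and 432 to 557 FPKM in HFD. All 5 blood markers had a positive log2FC and 4 an unadjusted P below 0.05 (median 0.92). The 6 slow fibre markers were all positive too, 4 with an unadjusted P below 0.05 (median 2.39). So were the 6 Schwann cell markers, 5 with an unadjusted P below 0.05 (median 1.23). Over all genes, 4.72% had an unadjusted P below 0.05. The part of these markers in the Ddit4 values was not tested.

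Eif4ebp1 had CPM of 30.0, 38.5, 34.6, and 29.5 in HFD + RSV. These values overlapped those of HFD, and the interval of the log2FC reached from -0.22 to 0.52 (edgeR adjusted P = 0.999). Trim63 had 396, 251, 466, and 245 CPM and Fbxo32 had 1788, 1039.8, 2066, and 933 CPM in HFD + RSV. In both genes, replicates 1 and 3 were high and replicates 2 and 4 low, and their log2FC were -0.15 (95% confidence interval -0.76 to 0.46) and -0.09 (-0.71 to 0.53). Klf15 had the most negative value, with a log2FC of -0.41 (95% confidence interval -0.89 to 0.07). The log2FC of Foxo1, Foxo3, and Foxo4 were 0.06, -0.07, and -0.16, and those of Fbxo30 and Fbxo31 were 0.05 and -0.18.

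HFD + metformin against HFD gave no call among the 10 genes with edgeR, DESeq2, or limma-voom, where 0.013% of all genes tested were called with edgeR. The smallest P belonged to Eif4ebp1, which was 1.57-fold higher by mean in HFD + metformin. At an unadjusted P below 0.05, Eif4ebp1, Foxo1, and Foxo4 passed, which is 3 of the 10 genes beside 8.02% of all genes. No gene of the 10 met the criteria that also ask for an absolute log2FC above 1, which 1.76% of all genes met.

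Eif4ebp1 had CPM of 43.6, 32.8, 64.8, and 46.7 in the HFD + metformin mice. Replicates 1, 3, and 4 lay above all HFD mice, and replicate 2 lay just under HFD replicate 4. The log2FC was 0.65 (SE 0.18, 95% confidence interval 0.28 to 1.03, edgeR P = 0.00215, adjusted P = 0.533, exact permutation P = 0.0571). The white adipocyte sums of these mice were 1405, 163, 3971, and 289 FPKM, so replicate 2 was lowest in both measures and replicate 3 highest in both. These sums overlapped those of HFD. All 7 white adipocyte markers had a positive log2FC (median 1.72), but none had an unadjusted P below 0.05. Blood marker sums did not overlap, at 1235, 701, 2092, and 611 FPKM in HFD + metformin and 432 to 557 FPKM in HFD, and all 5 blood markers were positive with an unadjusted P below 0.05 (median log2FC 1.12). Of the 4 brown adipocyte markers, 2 passed an unadjusted P below 0.05, with Ucp1 at 55.7 FPKM in replicate 3. Without replicate 3, the log2FC of Eif4ebp1 was 0.46. The part of adipocyte and blood RNA in the differences of HFD + metformin was not tested. Foxo4 had 138, 141, 110.4, and 130.4 CPM, all below the lowest HFD mouse (log2FC -0.30, SE 0.13, edgeR adjusted P = 0.618, exact permutation P = 0.0286). It was the 1 gene of the 10 whose ranges did not overlap, beside 3.72% of all genes.

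Foxo1 had 27.9, 28.1, 55.1, and 31.7 CPM in HFD + metformin, with replicate 3 alone above all other mice of the series. Its log2FC of 0.46 (SE 0.20, edgeR adjusted P = 0.618, exact permutation P = 0.143) was 0.17 without that mouse, which is also the one with 3971 FPKM of white adipocyte markers. Fbxo32 had 981, 1021, 1009, and 1802 CPM, and Trim63 had 237, 251, 326, and 458 CPM, with replicate 4 the highest in both. Their log2FC of -0.37 and -0.25 had intervals that included 0 (-0.99 to 0.25 and -0.85 to 0.36). Ddit4 had 30.7, 26.3, 52.8, and 12.4 CPM, with a log2FC of 0.68 and a wide interval from -0.37 to 1.73. It was 0.28 without replicate 3, and also 0.28 without both mice with the most adipocyte RNA. The values of Foxo3, Fbxo30, Fbxo31, and Klf15 lay between -0.16 and 0.00 on the log2FC scale.

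The treated groups were also set against control, with which the HFD comparison shares its 4 control mice. In HFD + RSV, Eif4ebp1 had a log2FC of -1.06 (SE 0.18, edgeR adjusted P = 0.0647), Trim63 of -1.003 (adjusted P = 0.165), and Ddit4 of -1.22 (adjusted P = 0.257), and none of the 10 genes was called, beside 0.00651% of all genes. Eif4ebp1 and Trim63 were called here with DESeq2, and Eif4ebp1 also in the fit without the metformin group, in the fits without HFD + metformin replicate 2 or 3, and without the 2 mice with the most adipocyte RNA. Over all genes, 376 of 15353 were called with DESeq2 and 231 of 15097 without the metformin group. Without HFD + metformin replicate 2 or 3 it was 4 of 15592 and 261 of 15565, and without the 2 mice 53 of 15499. The ranges of Foxo3, Klf15, and Eif4ebp1 did not overlap with those of control, which is 3 of the 10 genes beside 11.3% of all genes. In HFD + metformin, the values were -0.56 for Eif4ebp1, -1.10 for Trim63, -1.80 for Ddit4, and -0.73 for Fbxo32 (edgeR adjusted P = 0.300, 0.236, 0.257, and 0.445), with none called by edgeR, beside 0% of all genes. At an unadjusted P below 0.05, 5 of the 10 genes passed in HFD + RSV and 6 in HFD + metformin, beside 15.8% and 9.5% of all genes. Trim63 and Ddit4 were called in HFD + metformin by DESeq2, and Eif4ebp1 was called by edgeR (log2FC -0.75, adjusted P = 0.0398) once HFD + metformin replicate 3 was left out. Over all genes, DESeq2 called 146 of 15353 here, and edgeR called 180 of 15565 without that mouse.

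HFD + RSV against HFD + metformin gave no call with edgeR, DESeq2, or limma-voom, where 0% of all genes were called with edgeR. Eif4ebp1 alone passed an unadjusted P below 0.05, as did 4.68% of all genes, and was lower in HFD + RSV (log2FC -0.50, 95% confidence interval -0.88 to -0.13, edgeR adjusted P = 0.962, exact permutation P = 0.0857). Its log2FC was -0.31 without HFD + metformin replicate 3. Ordered by mean CPM, neighbouring groups overlapped in all 10 genes. The order was control, HFD + metformin, HFD + RSV, HFD for Eif4ebp1 and control, HFD + RSV, HFD + metformin, HFD for Ddit4. Fbxo32 and Trim63 shared the order control, HFD, HFD + RSV, HFD + metformin.

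Mice of 1 group differed from each other in a coordinated way. Fbxo32 and Trim63 rose and fell together, whereas Ddit4 was low in the mice in which these ligases were high. Ranked by Fbxo32, the 4 control mice had the same order in Trim63 and the reverse order in Ddit4. The control with the most Fbxo32 (2771 CPM) had the most Trim63 (934 CPM) and the least Ddit4 (34.8 CPM), and the control with the least Fbxo32 (1384 CPM) had the least Trim63 (412 CPM) and the most Ddit4 (161 CPM).

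After subtraction of the group means, the correlation over the 16 mice was r = 0.95 and rho = 0.94 for Fbxo32 with Trim63 (exact permutation within groups, P = 2.41e-05 and 9.65e-05, adjusted P = 0.00109 and 0.00434 over 45 pairs). For Fbxo32 with Ddit4 it was r = -0.85 and rho = -0.87 (exact permutation P = 0.000289 and 0.000461, adjusted P = 0.00651 and 0.0104). Without the 2 mice farthest in Fbxo32, r was 0.92 and -0.86. Without control replicate 1 it was 0.94 and -0.83. Of the 45 pairs, 9 passed an adjusted P below 0.05 for r and 8 for both r and rho. How many pairs of other genes would pass in the same 16 mice was not tested. These counts therefore do not show a coordination particular to these genes. The remaining pairs among the 8 were Foxo4 with Eif4ebp1 (r = -0.68) and Ddit4 (r = -0.71), Trim63 with Ddit4 (r = -0.74) and Klf15 (r = 0.74), Foxo3 with Fbxo31 (r = 0.70), and Foxo4 with Fbxo30 (r = 0.73). All mice share the scaling of their library between genes, and Fbxo32 also went against the slow fibre sum (r = -0.71, adjusted P = 0.133).

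**Figure D4:**
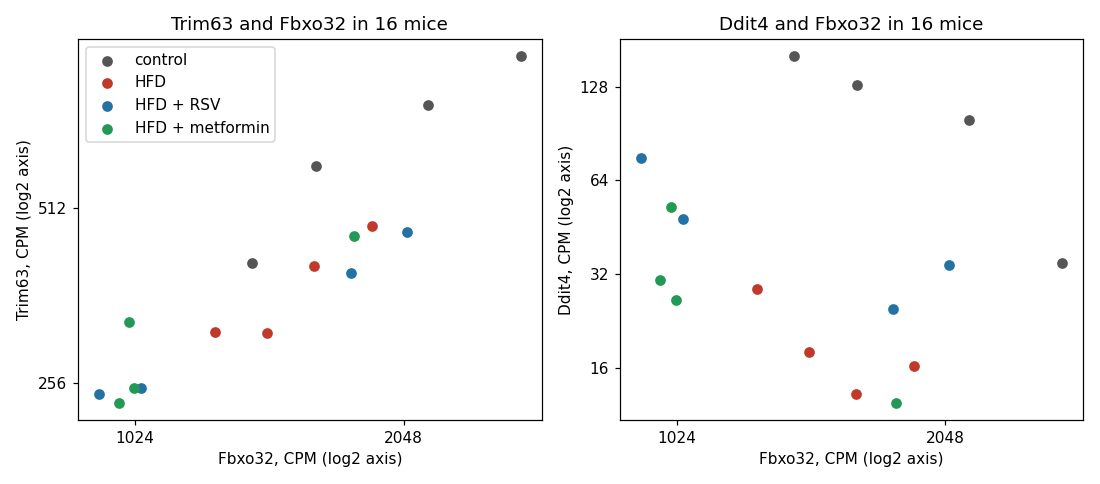
Trim63 (left) and Ddit4 (right) against Fbxo32 in the 16 mice, in CPM on log2 axes, with colours for groups. Trim63 rises with Fbxo32 in every group, Ddit4 falls with it within groups, and the control mice lie above the others in Ddit4 except the 1 at 34.8 CPM.

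The wider pathway was described by 7 lists of genes, each by its calls in HFD against control and its median log2FC, beside -0.02 over all genes. Over all genes, 2.43% were called in either direction, 1.11% were called lower, and 24.2% had an unadjusted P below 0.05. Of 16 genes of the FoxO pathway, its upstream kinases, and insulin signaling, 1 was called, the only 1 with an unadjusted P below 0.05. It was Irs1, the main insulin receptor substrate of muscle, which was higher in HFD at 112 ± 18.4 against 64.6 ± 8.49 CPM (log2FC 0.80, edgeR adjusted P = 0.0347), and the median of the list was -0.01. Of 24 other FoxO targets of muscle, 1 was called higher and 2 were called lower (median -0.13). Of these 24, 10 had an unadjusted P below 0.05 and 17 a negative log2FC. Igfbp5, a binding protein of insulin-like growth factors, was higher at 470.2 ± 40.1 against 190 ± 38.9 CPM (log2FC 1.31). Gabarapl1, an autophagosome protein, was lower at 59.9 ± 8.16 against 117 ± 27.5 CPM (log2FC -0.96), and so was Bnip3, a mitophagy receptor, at 192 ± 2.00 against 305 ± 28.1 CPM (log2FC -0.67, SD and n = 4 in each group, edgeR adjusted P = 0.0267, 0.0202, and 0.0342).

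Of 19 other ubiquitin ligases of muscle wasting, 8 had an unadjusted P below 0.05 and 2 were called, both lower (median 0.12). They were Cblb, a ligase for IRS1, at a log2FC of -0.82, and Smurf1, a ligase of the BMP pathway, at -0.43 (edgeR adjusted P = 0.0143 and 0.0474). None of 20 genes of mTORC1 and translation initiation was called, 7 had an unadjusted P below 0.05, and the median was 0.05. None of 18 glucocorticoid response genes was called, although 16 had a negative log2FC and 10 an unadjusted P below 0.05 (median -0.56). None of 12 KLF15 targets was called either, with 11 negative values and 5 unadjusted P below 0.05 (median -0.71). Of 19 clock genes tested, Dbp, a clock output factor, was called and higher (log2FC 1.58, edgeR adjusted P = 0.0478, median of the list 0.32). Of these 19, 6 had an unadjusted P below 0.05. In HFD + RSV against HFD and in HFD + metformin against HFD, no gene of the 7 lists was called. The median of the glucocorticoid list was 0.21 and 0.19 in these comparisons, that of the KLF15 list 0.08 and 0.40, and the other 5 lay between -0.09 and 0.09, beside 0.00 and 0.02 over all genes.

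Over the 16 mice and 15363 other genes, the log2 CPM of Ddit4 was most like that of Nfkbia (r = 0.96, rho = 0.94), Pi15 (r = 0.90, rho = 0.90), and Mt1 (r = 0.89, rho = 0.88). For Eif4ebp1 the most alike were Rassf6 (r = 0.92, rho = 0.86), Atp6v0e (r = 0.92, rho = 0.88), and Bnip3 (r = 0.92, rho = 0.80). These values contain the group differences and describe likeness only.

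At the level of transcripts, a single transcript held at least 76.6% of the counts of 9 genes, and the counts of Klf15 were spread over 3 transcripts with 38.0%, 31.1%, and 23.5%. The transcript of Klf15 that starts at the promoter window, ENSMUST00000032174, held 61.4%, 79.0%, and 64.5% of the Klf15 counts in control replicate 2, HFD replicate 2, and HFD + RSV replicate 3, and 14.6% to 26.3% in the other 13 mice. In Trim63, ENSMUST00000105875 held 89.1% to 96.5% of the counts in 15 mice and 6.36% in control replicate 1, where ENSMUST00000030638 held 68.6% and was at 0 counts in every other mouse. The starts of these 2 transcripts are only 2 bases apart, and StringTie divides shared fragments by estimation, so the sum over transcripts is the firmer value. The fit to ENSMUST00000105875 alone gave a log2FC of -0.21 in HFD against control.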

How the data were processed

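Skeletal muscle RNA of 16 mice was sequenced after ribosomal RNA depletion, with 1 library per mouse. Per the labels' processing notes, fastp, HISAT2, and GRCm38 were used. The authors counted fragments with StringTie and deposited expected counts per transcript and mouse (whole numbers, not normalized) in an mRNA table and a lncRNA table. The authors also deposited FPKM values, which were used here only for levels between genes and marker sums. Whether counting used strand is not given in the sources used here.

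Counts were summed per gene name, after 4 transcripts split over 2 lines had been joined. Genes were filtered with filterByExpr (minimum count 10, minimum total 15), which all 10 genes passed, and 15364 genes were fitted for all 16 mice in 1 model with edgeR 4.0.16 in R 4.3.3 (TMM, robust quasi-likelihood test, Benjamini-Hochberg adjustment over all genes). SE is the absolute log2FC divided by the square root of F. CPM were TMM-scaled, and log2 CPM had a prior count of 2. Single genes were also compared with exact two-sided permutation tests. Correlations used group-centred log2 CPM or log2 of the summed FPKM plus 1, with exact permutations within groups, and were added after seeing the data. DESeq2 1.42.0 and limma 3.58.1 were alternatives. In simulated data for HFD against control, the model recovered 62% of genes changed at a log2FC of 1 and 88% at 2. The simulated counts were drawn independently for each gene and mouse. They held no mouse that stands apart in many genes at once, so these shares apply to such data only.

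The 10 genes and all lists were chosen with earlier results of these data known. From the lists, only called genes are named, at most 4 per list and comparison. Likeness is shown for called genes, with the 3 highest Pearson r. Leave-outs of the 2 mice with the most adipocyte mRNA were chosen after seeing the data.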

Additional observations from a re-analysis of the deposited data

Results flagged for a closer look

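Of the 40 combinations of a gene and a group, 3 held a mouse far from the other 3 of its group by Dixon's test, which chance gives in about 1 of 20 groups. Foxo1 was at 55.1 CPM in HFD + metformin replicate 3 and at 27.9 to 31.7 CPM in the other mice of the group. The lncRNA NONMMUT043035.2, which lies wholly within an exon of Foxo1, was also highest in this mouse, at 2034 counts. Foxo3 was at 27.0 CPM in HFD + RSV replicate 2 and at 35.2 to 36.4 CPM in the rest of that group. Fbxo32 was at 1802 CPM in HFD + metformin replicate 4 and at 981 to 1021 CPM in its group mates.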

How the results depend on the processing

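Of 1650 recomputed log2FC of the 10 genes, 1593 kept their sign and side of the threshold, 10 gained a call, 9 lost one, and 38 changed sign, none of them called. Of the 10 genes, 2 were called in HFD against control, 3 with DESeq2, 0 in the fit of the most abundant transcript, which tests more features, and 1 to 2 when 1 mouse was left out. In HFD + RSV against control, 0 were called, but 1 without the metformin group, 2 with DESeq2, 1 without the 2 mice with the most adipocyte mRNA, 3 by unadjusted P and fold change, and 0 to 1 with 1 mouse left out. Over all genes, 231 were called there without the metformin group, 376 with DESeq2, and 53 without those 2 mice. By unadjusted P and fold change, 91 of 15364 were higher and 327 lower. With 1 mouse left out, 0 to 261 were called. In HFD + metformin against control, 0 were called, but 2 with DESeq2, 2 by unadjusted P and fold change, and 0 to 1 with 1 mouse left out. Over all genes, 146 were called there with DESeq2 and 0 to 180 with 1 mouse left out. By unadjusted P and fold change, 65 of 15364 were higher and 185 lower. In HFD + RSV against HFD, 1 was called by unadjusted P and fold change, beside 1.08% of all genes. Over all genes, 374 were called in HFD against control, and this count moved far with the mice used. It was 1588 without HFD + metformin replicate 3, 773 without control replicate 1, 644 without HFD + metformin replicate 4, and 16 to 208 without any one of the remaining mice except HFD + metformin replicate 2 (330). It was 1616 without the metformin group, 1544 with DESeq2, 998 with the 2 groups only, 158 without a filter on low counts, and 7 for transcripts.

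Values near 0 changed sign. Foxo3 in HFD + metformin against HFD (0.00058) was -0.0034 with these 2 groups only, -0.0024 with DESeq2, -0.0033 with RLE, -0.041 with both tables as library size, -0.065 for the main transcript, -0.0074 without a filter, and -0.0095 with upper quartile scaling. Fbxo31 in HFD + RSV against HFD + metformin (-0.015) was 0.0097 with both tables as library size and 0.0054 with upper quartile scaling, and Klf15 in HFD + metformin against HFD (-0.048) was 0.058 for the main transcript. With 1 mouse left out, HFD + RSV against HFD ranged from -0.018 to 0.171 for Foxo1, -0.134 to 0.022 for Foxo3, -0.310 to 0.070 for Fbxo32, and -0.015 to 0.137 for Fbxo30. HFD + metformin against HFD ranged from -0.068 to 0.077 for Foxo3 and -0.206 to 0.130 for Klf15. HFD + metformin against control ranged from -0.024 to 0.365 for Foxo1 and -0.040 to 0.119 for Foxo4. HFD + RSV against HFD + metformin ranged from -0.110 to 0.030 for Foxo3, -0.097 to 0.324 for Trim63, and -0.088 to 0.074 for Fbxo31. The cause was not tested.

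A prior count of 0.5 changed the side of 0.05 in 0 of 60 permutation tests. No paired analysis was possible, because each group holds different mice and the labels name no pairs between groups. The labels give the mice no replicate numbers, and the numbers used here follow the order of the samples in each group. The meaning of the leading number of the mouse labels is not given. Some control, HFD + RSV, and HFD + metformin mice share it, and no HFD mouse shares it with another group.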

Other observations

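The lncRNA table held 13 transcripts that overlap the 10 genes in position, of which 10 were tested and none was called in any comparison (lowest edgeR adjusted P = 0.0583). Some of these rows share sequence with the mRNAs. NONMMUT043035.2 (chr3:52347204-52350090) and NONMMUT043037.2 lie wholly within an exon of Foxo1 and held 58.1% of the counts that both tables gave to Foxo1, and NONMMUT005414.2 (chr10:42181845-42185476) lies wholly within an exon of Foxo3 and held 56.3% of the counts there, so the FPKM of Foxo1 and Foxo3 rest on the part of the fragments that was assigned to the mRNA. Adding these rows to the genes, an alternative chosen after seeing the data, changed no call. In the introns, ENSMUST00000193915 in Foxo1 had 236, 906, 808, and 638 counts in the control mice and 301, 176, 249, and 273 in the HFD mice, with control replicate 1 the lowest control (log2FC -1.18, edgeR adjusted P = 0.0583). NONMMUT049997.2 in Trim63 had 406, 1585, 745, and 484 counts in control and 279, 377, 301, and 163 in HFD, with all HFD mice below all control mice (log2FC -1.30, edgeR adjusted P = 0.075).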
